A study of Mus musculus with 9 samples.

Results

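The Iroquois genes (Irx1 to Irx6) encode homeodomain transcription factors of the TALE class, which pattern the limbs, heart, nervous system and other tissues of the embryo. In the mouse they lie in a pair of clusters, Irx1, Irx2 and Irx4 on chromosome 13 and Irx3, Irx5 and Irx6 on chromosome 8, where Fto, which encodes a demethylase of adenosine in RNA, lies beside Irx3. In human, noncoding variation inside FTO introns has been linked to IRX3 and IRX5 in fat cell precursors, which is why Fto is read here with the Iroquois genes. DNA methylation is the addition of a methyl group to the cytosine of a CpG, and CpG-rich gene starts are usually free of it. The members were the cytosines measured inside each of the 7 genes or within 20000 bp on either side (GENCODE vM1, mouse genome mm9), 995 of the 838481 cytosines in all. The chromosome 8 genes held 646 of them (Fto 213, Irx3 215, Irx5 168, Irx6 50) and the chromosome 13 genes 349 (Irx1 68, Irx2 183, Irx4 98).

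The cells were preadipocytes isolated from 3-week-old BL6 mice and differentiated in culture with insulin, dexamethasone, isobutylmethylxanthine and rosiglitazone, and their DNA methylation was read by reduced representation bisulfite sequencing (RRBS), which sequences short restriction fragments after bisulfite treatment. The brown lineage held 4 libraries: interscapular brown cells (BAT) at days 0, 4 and 6, and day 6 brown cells treated with norepinephrine for 4 h (BAT + NE). The white lineage held 5: inguinal white cells (WAT) at days 0, 4 and 6, and white cells differentiated with norepinephrine and taken at days 4 and 6 (BWAT). Each condition was 1 library and nothing stated that the days were separate cultures, so the p-values below measure only the spread between these libraries, and lineage and fat depot of origin cannot be told apart.

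Each value was the percentage of reads that stayed methylated at a cytosine. Every retained cytosine had at least 10 reads in every library, but the read numbers were not in the table, so the depth behind a value is unknown and no interval for counting error was given. Over all cytosines the libraries averaged 40.2% to 41.2%, and the brown mean lay 0.385 points below the white mean. The white fat marker promoters Hoxc9 and Hoxc10 were 10.99 and 15.7 points higher in the brown lineage. These were 2 of 4 promoters called, that is, with an adjusted p under 0.05 in limma, where 1.37% of all promoters were. Hoxc8 (0.560 points) and Tbx15 (−0.425 points) were not called. The brown fat regulator Ebf2 was 9.68 points lower (1 of 8 called). The uncalled brown fat promoters ran both ways, from −5.91 points (Prdm16) to 2.98 points (Lhx8). Of the endothelial genes listed, the Pecam1 promoter was 23.6 points lower in brown (1 of 3 promoters called). The uncalled Tek promoters differed by 2.09 and −1.98 points. Of the muscle genes listed, the Myf5 promoter was 11.5 points lower (1 of 3). Myod1 (−0.669 points) and Pax7 (−2.78 points) were not called. Neither blood marker was measured, 1 of 4 mature fat cell markers was, and the part of other cells in the results below was not tested.

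The 7 genes differed in how methylated their surroundings were. Fto, a gene of 354908 bp at chr8:93837431-94192338 on the plus strand (ENSMUSG00000055932.8), was methylated through its introns, and its window averaged 76.1% to 78.0% over the libraries. The other 6 windows were far lower. Irx3 (chr8:94322428-94325553, minus strand, ENSMUSG00000031734.8) averaged 6.76% to 8.49% and Irx6 (chr8:95198188-95204855, plus strand, ENSMUSG00000031738.7) 9.19% to 10.7%. On chromosome 13, Irx1 (chr13:72095680-72101171, minus strand, ENSMUSG00000060969.7) averaged 17.0% to 22.3%. Irx2 (chr13:72766245-72771644, plus strand, ENSMUSG00000001504.8) averaged 6.15% to 8.08% and Irx4 (chr13:73397945-73407068, plus strand, ENSMUSG00000021604.7) 14.6% to 16.9%. Levels under 10% made up 55.7% of the chromosome 8 cytosines and 68.8% of those on chromosome 13, against 46.4% of all cytosines. Fto lowered the chromosome 8 share, with 20 of its 213 cytosines under 10%. The counts were 191 of 215 at Irx3, 105 of 168 at Irx5 and 44 of 50 at Irx6. On chromosome 13 they were 27 of 68 at Irx1, 152 of 183 at Irx2 and 61 of 98 at Irx4.

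The window of Irx5 (chr8:94881695-94885351, plus strand, ENSMUSG00000031737.8) was the only one of the 7 called between the lineages. Irx5 encodes a transcription factor known for its part in heart repolarization and in retinal neurons. Its 168 cytosines averaged 16.2%, 16.4% and 17.5% in BAT at days 0, 4 and 6 and 17.7% in BAT + NE, against 13.6%, 14.5% and 15.4% in WAT and 13.5% and 14.5% in BWAT. All 4 brown libraries lay above all 5 white ones. The brown minus white difference was 2.66 points, or 0.28 (SE 0.044) on the log2 odds scale used for the test (adjusted p = 0.0056, limma over 16507 gene windows). Of those windows 13.0% were called, against 1 of 7 here, and the other 6 had adjusted p between 0.249 and 0.932. With only the 6 BAT and WAT libraries and day as a factor, the adjusted p of the Irx5 window was 0.0643 and the call was lost. The window holds the 2 stretches of Irx5 cytosines called below, so its call is not separate from theirs. The stretch in the gene body held 56 of the 168 cytosines, and there the lineages overlapped on each DNA strand alone.

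**Figure D1:**
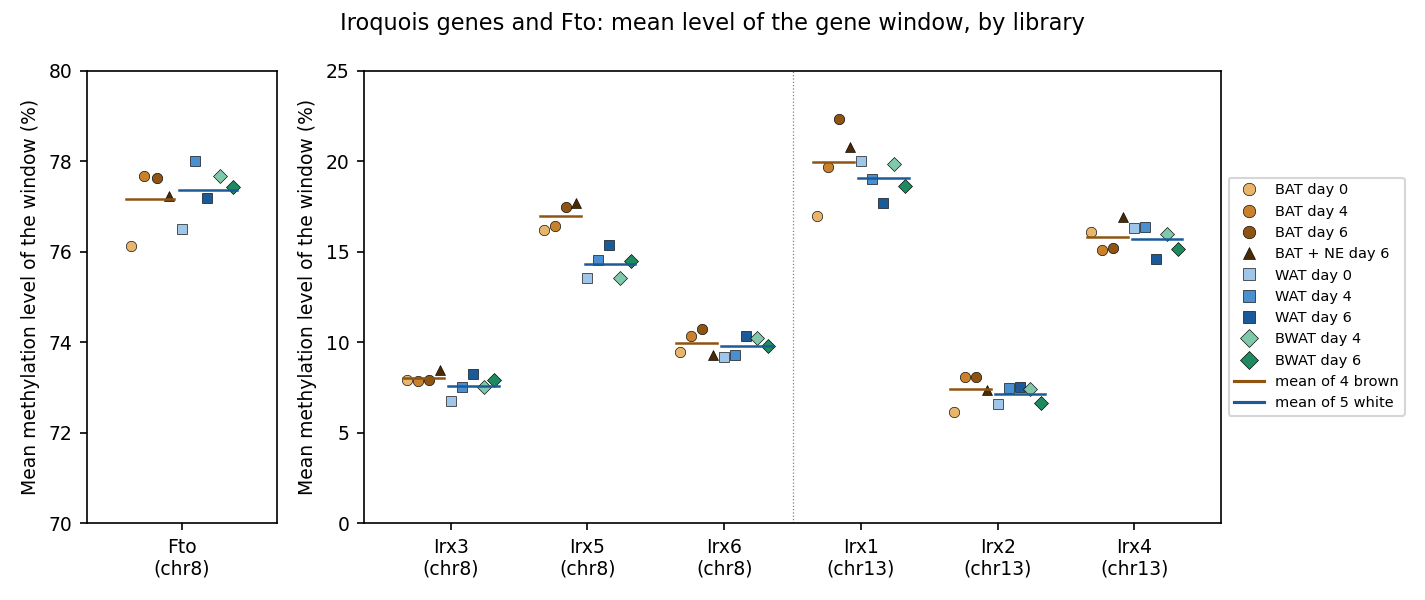
Mean methylation level (%) of each gene window by library, with Fto on its own axis from 70% to 80% and the 6 Iroquois genes on an axis from 0%; points are single libraries and lines are the means of the 4 brown and 5 white libraries. Only for Irx5 did the brown libraries (16.2% to 17.7%) all lie above the white ones (13.5% to 15.4%).

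No start of a member gene was called between the lineages. Promoters were read as 1000 bp before to 500 bp after each annotated start, with windows of a gene that overlapped merged, and 7 promoters of 6 member genes held at least 2 cytosines. Irx4, which marks the ventricles of the heart, had no promoter that did. None of the 7 was called (limma, 0 also at an unadjusted p under 0.05), where 1.37% of all 15694 promoters were. The start of Irx3, a gene known for heart conduction and for the hypothalamus, was read at 77 cytosines, and its levels were 0.58% to 1.03% in brown and 0.94% to 1.21% in white libraries. The Irx5 start (11 cytosines) ranged from 0.69% to 3.33% in brown and from 2.04% to 3.31% in white. The Irx6 start (44 cytosines) ranged from 1.56% to 3.07% and from 1.37% to 2.41%. These starts were nearly free of methylation in both lineages and their libraries overlapped.

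On chromosome 13 the starts were low as well. The Irx1 start (15 cytosines) ranged from 0.77% to 2.09% in brown and from 0.24% to 2.14% in white. The 5301-bp merged window of Irx2 (141 cytosines) ranged from 4.17% to 6.27% and from 4.52% to 5.53%. It reaches exon 3, where 19 cytosines (chr13:72768784-72768907) stood at 25.03% to 40.2% over the libraries. The 120 cytosines at the start itself (chr13:72765907-72766650) stood at 0.73% to 1.11% in brown and 0.99% to 1.44% in white. Fto had a start at 0.93% to 1.76% in brown and 0.45% to 1.41% in white (12 cytosines), and a start of shorter transcripts inside its first intron (chr8:93910635-93912135, 4 cytosines) that was methylated at 85.7% to 94.8% and 88.4% to 93.9%. A promoter rule modelled on the study's own, at least 2 cytosines past 10 points between BAT and WAT and all in 1 direction at days 0, 4 and 6, called 0 of the 7 and 1.11% of all promoters. At single days it called 1 of the 7 each: Irx3 lower in BAT at day 0, the merged Irx2 window higher at day 4 and Irx6 higher at day 6. On those days it called 9.61%, 10.9% and 12.7% of all promoters. At day 4, BAT minus WAT was 11.8 points in the Irx2 exon 3 stretch and −0.606 points at the Irx2 start.

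Away from the starts, stretches at Fto, Irx3 and Irx5 on chromosome 8 were called between the lineages, and none on chromosome 13. Cytosines no more than 300 bp apart were joined into fragments of at least 4, which gave 58 fragments with 971 of the 995 cytosines. In the limma fit, 7 of the 42 chromosome 8 fragments were called (16.7%), 6 higher and 1 lower in brown, and 0 of the 16 on chromosome 13. Over both chromosomes that was 7 of 58 (12.1%), where 9.43% of all 67233 fragments were called, 3.52% higher and 5.91% lower in brown. At an unadjusted p under 0.05 the counts were 13 and 3, against 21.7% of all fragments. The difference between the chromosomes was not tested. The chromosome 13 fragments were also less methylated: 9 of 16 had a mean under 10%, against 10 of 42 on chromosome 8. Of those 42, 26 were at Fto, whose window averaged 76.1% to 78.0%, so this contrast is not one between Iroquois genes alone. Among fragments between 10% and 90%, 7 of 22 on chromosome 8 were called (31.8%), 0 of 7 on chromosome 13 and 14.2% of all.

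**Figure D2:**
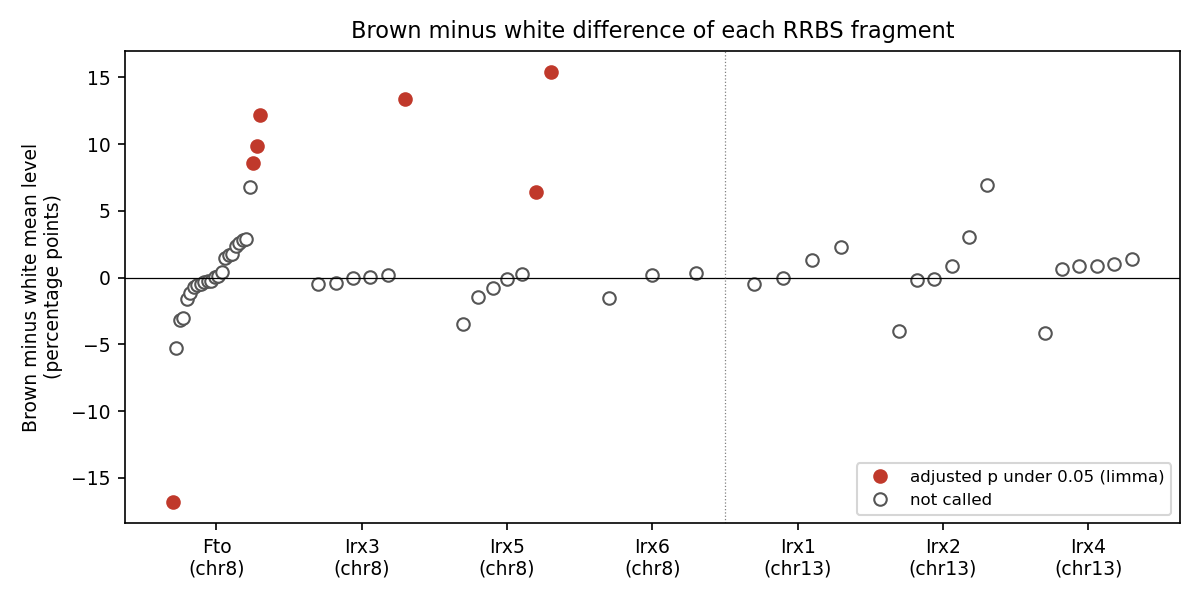
Brown minus white mean level (percentage points) of each of the 58 fragments, grouped by member; each point is 1 fragment and filled points had an adjusted p under 0.05 (limma). The 7 called fragments lie at Fto, Irx3 and Irx5, and all but the Fto fragment at −16.8 points are higher in brown.

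The sequences of 5 of the 7 called fragments are shown. These are the widest on chromosome 8, the called fragments nearest the starts of Fto, Irx3 and Irx5, and the widest at Irx5. The last was added after its values were seen. The sequences are the plus strand of NCBIM37 (mm9), 5′ to 3′, with the measured CpGs in capitals. In order they lie at chr8:93916061-93916310, chr8:93834633-93834767, chr8:94330468-94330590, chr8:94883940-94884162 (the densest run of its fragment) and chr8:94889032-94889135.
Fto intron: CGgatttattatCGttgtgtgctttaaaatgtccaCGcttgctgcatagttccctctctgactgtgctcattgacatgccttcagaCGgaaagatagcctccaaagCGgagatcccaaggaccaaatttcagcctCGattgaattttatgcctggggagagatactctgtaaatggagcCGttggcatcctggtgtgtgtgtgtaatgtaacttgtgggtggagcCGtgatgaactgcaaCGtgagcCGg
Fto upstream: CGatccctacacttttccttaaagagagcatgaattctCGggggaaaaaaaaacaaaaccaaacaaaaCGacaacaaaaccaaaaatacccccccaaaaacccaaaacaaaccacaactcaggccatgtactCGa
Irx3 upstream: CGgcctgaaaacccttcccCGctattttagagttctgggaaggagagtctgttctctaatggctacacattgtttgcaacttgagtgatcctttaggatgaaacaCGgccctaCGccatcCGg
Irx5 gene body: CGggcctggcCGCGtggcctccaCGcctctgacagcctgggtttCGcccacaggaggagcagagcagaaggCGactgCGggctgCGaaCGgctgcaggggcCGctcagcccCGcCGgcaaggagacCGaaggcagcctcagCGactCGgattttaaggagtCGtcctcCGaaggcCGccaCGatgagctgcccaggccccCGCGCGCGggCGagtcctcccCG
Irx5 downstream: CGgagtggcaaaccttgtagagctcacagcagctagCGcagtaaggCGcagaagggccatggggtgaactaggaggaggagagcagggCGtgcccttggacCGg
The Irx5 gene body stretch was the CpG-rich one, with 25 CpGs in 223 bases and a GC content of 71.7%. The others held 10 CpGs in 250 bases, 4 in 135, 5 in 123 and 5 in 104.

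The widest difference was in Fto and ran against the other calls. The fragment at chr8:93916061-93916309 lies in intron 1 of the full-length transcript of 9 exons, and its 18 cytosines covered 10 CpGs. It was methylated at 45.7%, 45.0% and 44.5% in BAT at days 0, 4 and 6 and 45.8% in BAT + NE, against 61.6%, 68.5% and 57.5% in WAT and 59.4% and 63.0% in BWAT. The brown libraries were close together and all lay below the white ones. The means were 45.2% ± 0.623 (SD, n = 4) and 62.0% ± 4.21 (SD, n = 5), a difference of −16.8 points with a log2 odds difference of −0.97 (SE 0.15; adjusted p = 0.0035, limma). All 18 cytosines were lower in brown, 10 with no overlap between the lineages, and the lineages were also apart on each strand alone (−15.2 and −21.2 points over the 8 CpGs read on both). No correspondence of this stretch to the human FTO introns was examined.

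A pair of further Fto fragments deep in the gene were higher in brown. In intron 8, the 12 cytosines at chr8:94180960-94181107 stood at 94.6%, 93.2% and 93.9% in BAT and 94.2% in BAT + NE, against 83.3%, 83.9% and 89.4% in WAT and 88.3% and 82.0% in BWAT. Brown cells were almost fully methylated there and all 12 cytosines were higher in brown (8.62 points; adjusted p = 0.0030, limma), with no overlap on either strand over 5 CpGs (8.29 and 8.67 points). In intron 4, the 6 cytosines at chr8:93970531-93970662 stood at 76.1%, 72.9% and 76.4% in BAT and 80.4% in BAT + NE, against 63.8%, 67.1% and 68.7% in WAT and 65.7% and 67.5% in BWAT. The lineages did not overlap (9.88 points; adjusted p = 0.013, limma), but the adjusted p was 0.0551 without the day 0 library of either BAT or WAT and 0.127 without cytosines in restriction sites. Over its 2 CpGs read on both strands, the lineages were apart on the plus strand (12.7 points) and overlapped on the minus strand (4.89 points).

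The fragment nearest the Fto start lay 2.73 kb before it, at chr8:93834633-93834766, inside intron 1 of the divergent gene Rpgrip1l, which encodes a protein of the ciliary transition zone. Its 7 cytosines stood at 71.2%, 70.02% and 68.8% in BAT and 71.7% in BAT + NE. The white levels were 59.6%, 54.6% and 53.8% in WAT and 65.1% and 58.3% in BWAT. All 7 cytosines were higher in brown and the libraries did not overlap (12.2 points; adjusted p = 0.015, limma). Only 2 of the 7 cytosines had no overlap between the lineages, and over the 3 CpGs read on both strands the lineages were apart on the plus strand (14.5 points) and overlapped on the minus strand (5.44 points). Without the day 0 library of either BAT or WAT the adjusted p was 0.0505. The same 7 cytosines also form the promoter of a short Rpgrip1l transcript, where the adjusted p over promoters was 0.060. The other 22 Fto fragments ranged from −5.23 to 6.79 points and none was called, and for 20 of them the lineages overlapped.

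At Irx3, 1 of 6 fragments was called. It lay 4.98 kb before the Irx3 start, at chr8:94330468-94330589, in the last exon of D230002A01Rik, a noncoding RNA gene that runs the opposite way from Irx3 and overlaps its start. The 8 cytosines stood at 70.2%, 70.8% and 72.7% in BAT and 79.1% in BAT + NE, against 54.0%, 58.6% and 62.6% in WAT and 62.4% and 61.4% in BWAT. Every brown library lay above every white one, with BAT + NE the highest. The means were 73.2% ± 4.08 (SD, n = 4) and 59.8% ± 3.62 (SD, n = 5), a difference of 13.4 points (log2 odds 0.88, SE 0.15; adjusted p = 0.0054, limma), and all 8 cytosines were higher in brown. Only 1 of the 8 had no overlap between the lineages, and over the 3 CpGs read on both strands the lineages overlapped on each strand alone (10.8 points on the plus and 14.1 on the minus strand). The other 5 Irx3 fragments, in the gene, at its start and past its 3′ end, differed by −0.463 to 0.239 points and were not called.

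**Figure D3:**
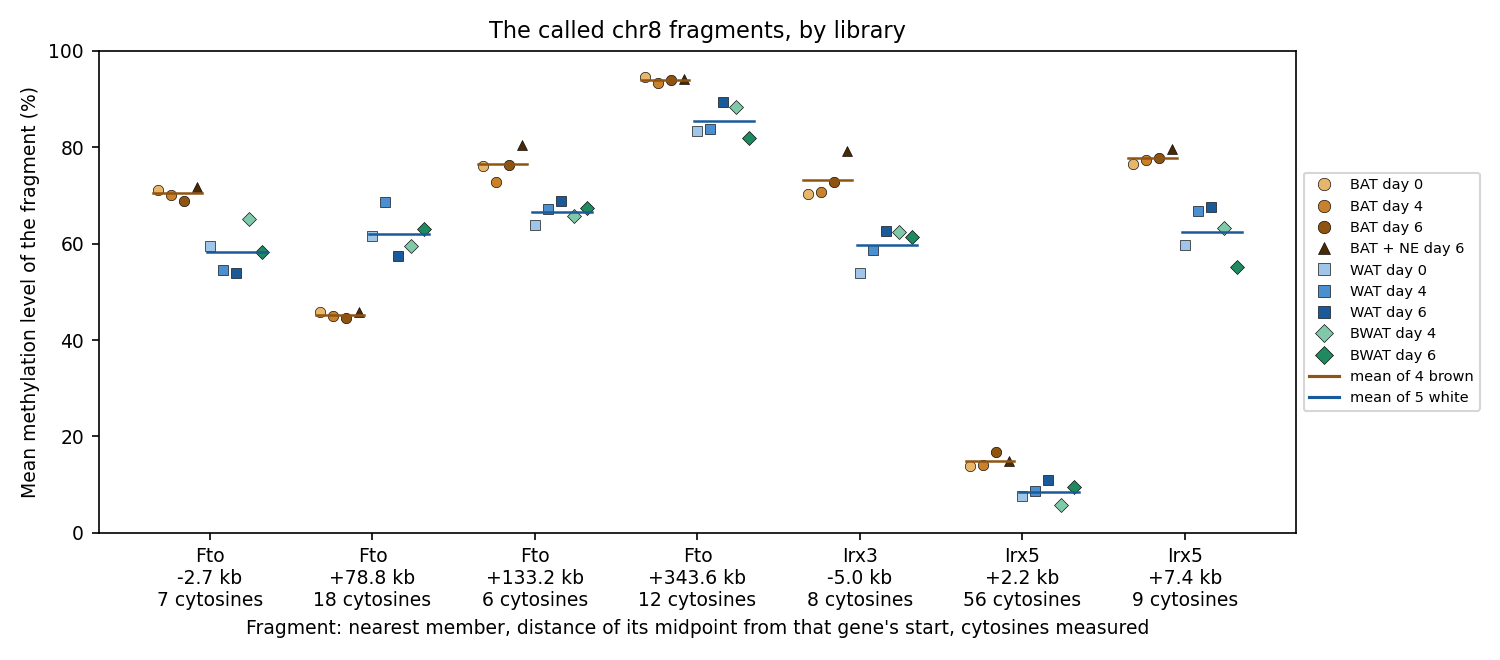
Mean methylation level (%) of the 7 called fragments by library, ordered along chromosome 8, with the distance of each midpoint from the start of its gene; points are single libraries and lines the means of the 4 brown and 5 white libraries. Brown lies below white only in the Fto fragment at +78.8 kb (45.2% against 62.0%), and the lineages do not overlap in any of the 7.

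At Irx5, 2 of 7 fragments were called. The wider one lay downstream of the gene, 7.39 kb from its start and outside any annotated gene, at chr8:94889032-94889134. Its 9 cytosines stood at 76.4%, 77.4% and 77.8% in BAT and 79.7% in BAT + NE, against 59.7%, 66.7% and 67.5% in WAT and 63.2% and 55.1% in BWAT. Brown libraries were close together and white ones spread more widely below them, at 77.9% ± 1.37 (SD, n = 4) and 62.5% ± 5.14 (SD, n = 5). The difference of 15.4 points (log2 odds 1.05, SE 0.17; adjusted p = 0.0035, limma) was shared by all 9 cytosines, whose own differences ran from 10.04 to 20.2 points, and by both strands (14.6 and 17.4 points over 4 CpGs, with no overlap on either).

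The other called Irx5 fragment was inside the gene, at chr8:94883535-94884162 across exons 2 and 3, and 47 of its 56 cytosines were coding. Its levels were 13.9%, 14.0% and 16.7% in BAT and 14.9% in BAT + NE, against 7.59%, 8.61% and 10.98% in WAT and 5.87% and 9.43% in BWAT. The libraries did not overlap (6.40 points, log2 odds 0.88, SE 0.18, adjusted p = 0.013, limma). Of the 56 cytosines, 51 were higher in brown, although only 5 had no overlap between the lineages. All 5 lay in the run of 48 cytosines at chr8:94883940-94884162, whose mean also separated the lineages. In the runs of 5 and 3 cytosines before it the lineages overlapped. The strands of the fragment disagreed, and not in the same direction in every library. Over the 25 CpGs read on both strands, the plus strand stood at 8.45%, 12.2% and 21.9% in BAT and 4.87% in BAT + NE, and the minus strand at 19.99%, 17.1%, 11.2% and 25.03% in the same libraries. White libraries ranged from 4.28% to 11.4% on the plus strand and from 7.06% to 12.01% on the minus strand. On each strand alone the lineages overlapped (3.74 and 9.95 points), so the separation rested on the mean of both. Over all 312084 CpGs of the series read on both strands, brown libraries averaged 35.2% on the plus and 38.1% on the minus strand. White libraries averaged 35.5% and 38.4% there. The other 5 Irx5 fragments, among them those at the start, differed by −3.50 to 0.244 points, overlapped and were not called.

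**Figure D4:**
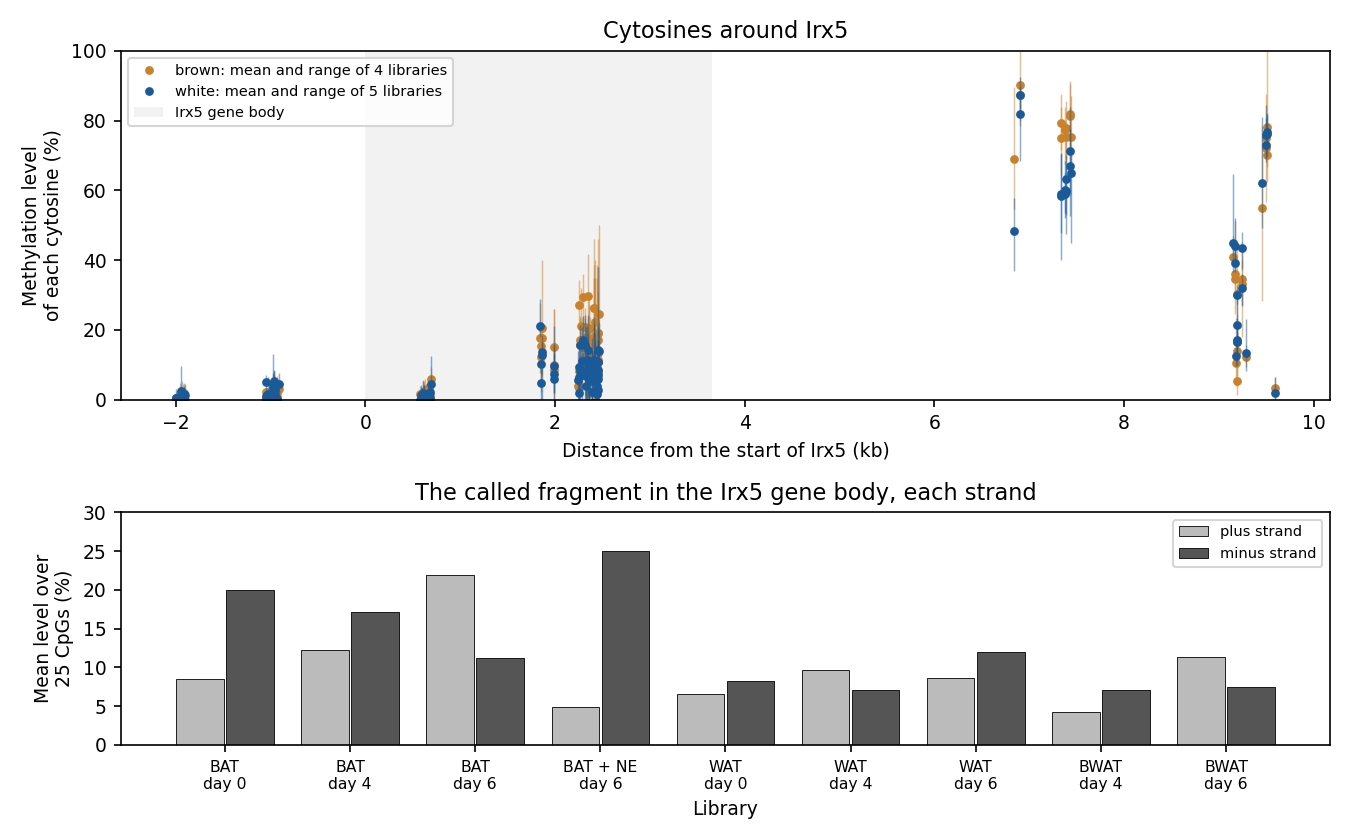
Upper panel, methylation level (%) of each cytosine from 2 kb before to 10 kb after the Irx5 start, as the mean (point) and range (line) of the 4 brown and 5 white libraries, with the gene body shaded; lower panel, mean level (%) over the 25 CpGs of the called gene body fragment read on both strands, by library and strand. Sites near the start are close to 0% in both lineages, and in the lower panel BAT + NE has 4.87% on the plus strand and 25.03% on the minus strand.

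Irx6, known for its role in retinal interneurons, held 3 fragments and none was called. They differed by −1.55 to 0.339 points, and the only methylated one, 4 cytosines at chr8:95221074-95221205, stood at 69.2% to 72.7% in brown and 71.2% to 73.4% in white. The calls on chromosome 8 were thus at Fto (4 of 26 fragments), Irx3 (1 of 6) and Irx5 (2 of 7). All 7 calls were lost with the 6 BAT and WAT libraries and day as a factor, where the adjusted p ran from 0.0595 to 0.188 with the signs kept and 2.28% of all fragments were called.

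On chromosome 13 the widest difference was at Irx2, 10.1 kb after its start (chr13:72776296-72776423, intergenic, 4 cytosines). It stood at 35.96%, 42.8% and 41.8% in BAT and 47.4% in BAT + NE, against 34.6%, 33.4% and 42.2% in WAT and 31.3% and 33.8% in BWAT. The lineages overlapped, and the difference of 6.95 points missed the threshold (adjusted p = 0.174, limma). A nearby Irx2 fragment (chr13:72775305-72775445, 6 cytosines) differed by −3.98 points, and one in Irx2 exon 3 (chr13:72768784-72768907, 19 cytosines, inside the merged promoter window) by 3.08. The latter moved more between libraries than between lineages: 25.03%, 40.2% and 36.4% in BAT, 28.9% in BAT + NE, 25.8%, 28.4% and 33.9% in WAT and 31.8% and 27.8% in BWAT.

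At Irx4, the fragment 2.66 kb before the start (chr13:73395166-73395402, 17 cytosines) ranged from 51.7% to 57.0% in brown and from 53.5% to 60.8% in white, a difference of −4.17 points (adjusted p = 0.357, limma). In Irx4 intron 1, 16 cytosines at chr13:73400508-73400642 differed by 1.40 points, with BAT + NE at 9.53% and the other brown libraries at 3.79% to 4.96%. At Irx1, a gene with roles in lung and heart development, 26 coding cytosines in exon 2 (chr13:72097340-72097463) stood at 12.3%, 16.4% and 17.8% in BAT and 17.1% in BAT + NE, against 14.2%, 14.7% and 11.2% in WAT and 15.2% and 12.5% in BWAT. The lineages overlapped and the difference was 2.33 points (adjusted p = 0.406, limma). The other 10 chromosome 13 fragments lay between −0.444 and 1.30 points.

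Single cytosines gave the same order of the groups, and Fto held most of the chromosome 8 count without overlap. On chromosome 8, 37 of 646 cytosines (5.73%) had brown and white libraries that did not overlap, 22 with brown above and 15 below. On chromosome 13 there were 3 of 349 (0.86%). Together that was 40 of 995 (4.02%), close to the 3.77% of all cytosines. Only Fto and Irx5 had a share above that of all cytosines. Fto held 25 of 213 (11.7%, 11 above and 14 below) and Irx5 9 of 168 (5.36%, 8 above and 1 below). Irx3 held 3 of 215 (1.4%, all above), Irx2 2 of 183 (1.09%) and Irx1 1 of 68 (1.47%). Irx4 and Irx6 held 0. Between BAT and WAT, 22 chromosome 8 cytosines were past 10 points in 1 direction at all 3 days (3.41%; BAT was above WAT at 15 and below it at 7) and 0 on chromosome 13, together 2.21% of the member cytosines against 2.51% of all. Of the 22, Fto held 4 above and 7 below, Irx5 7 above and Irx3 4 above. For whole fragments, 9 of the 42 on chromosome 8 did not overlap (21.4%, 6 above and 3 below) and 0 of 16 on chromosome 13. Over both chromosomes that was 9 of 58 (15.5%), against 12.3% of all. Neighbouring cytosines share reads and fragments, so these counts are not of independent sites.

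The mean over all cytosines of a group was also taken for each library. The chromosome 8 mean was 32.7%, 33.3% and 33.6% in BAT and 33.6% in BAT + NE, against 31.7%, 32.7% and 33.0% in WAT and 32.4% and 32.7% in BWAT. The lineages overlapped and brown was higher by 0.787 points. Without Fto, whose calls ran both ways, the remaining chromosome 8 genes stood at 11.3% to 12.1% in brown and 9.68% to 11.2% in white, a difference of 1.27 points with no overlap. The gap was narrow, between 11.30% in BAT at day 0 and 11.23% in WAT at day 6. By window, Irx5 differed by 2.66 points, while Irx3 (0.443 points) and Irx6 (0.181 points) overlapped. The chromosome 13 mean was 11.05% to 12.9% in brown and 11.4% to 12.2% in white, 0.361 points higher in brown with overlap. This value ran from 0.145 points without the BAT day 6 library to 0.748 without BAT day 0, and was 0.875 without flanks. The difference between the groups was 0.426 points, fell to 0.207 without WAT day 0 and 0.244 without BAT day 0, and with gene bodies alone, without flanks, turned to −0.315.

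Differentiation left no call in the member windows. Later days against day 0 gave 0 of 58 fragments (limma, 4 at an unadjusted p under 0.05), where 0.173% of all fragments were called and 8.57% had an unadjusted p under 0.05. Between days 0 and 6 of BAT, 2 fragments moved past 10 points, both on chromosome 13 and both up. The fragment just past the 3′ end of Irx1 (chr13:72094689-72095089) went from 39.4% to 50.4%, and the Irx2 exon 3 fragment from 25.03% to 36.4%. In WAT the Irx1 fragment went from 47.3% to 44.6% and the Irx2 fragment from 25.8% to 33.9%, and no member fragment moved past 10 points. Of all fragments, 5.36% did in BAT and 3.79% in WAT. These steps rest on 1 library each and were not tested.

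Norepinephrine-treated libraries were set beside their untreated counterparts. Between BAT + NE and BAT at day 6, 0 of the 58 fragments moved past 10 points, where 3.59% of all did, and on chromosome 8 the steps ran from −7.86 points, in an Fto intron fragment (chr8:93868533-93868669), to 6.36 points, in the Irx3 upstream fragment. Between BWAT and WAT, the Fto upstream fragment was 10.5 points higher at day 4 and 4.44 higher at day 6, toward the brown level. The Irx5 downstream fragment was 3.54 points lower at day 4 and 12.4 lower at day 6, away from it. No other member fragment passed 10 points in BWAT, against 2.56% of all at day 4 and 2.42% at day 6, and with 1 library per condition none of this was tested.

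The lists of related genes showed no lineage calls at their starts. Of 12 other TALE homeobox genes, 9 had 12 measured promoters, and 0 were called. Of the genes that neighbour the chromosome 8 group, 0 of 9 promoters were called, and of those beside the chromosome 13 group 0 of 8. Of all promoters 1.37% were called, so lists this short would hold few calls or none. Differences at the chromosome 8 neighbours ran from −0.579 points (Rbl2) to 12.2 points (Rpgrip1l, the promoter described above, with no overlap and adjusted p = 0.060, limma). The fragments elsewhere in the genome whose levels over the 9 libraries were most like the Fto intron 1 fragment, by root mean square difference, were in Itga9, an integrin subunit gene (2.52 points, chr9:118615772-118615924), near Cxcl9, a chemokine gene (2.84 points, chr5:92747815-92747967), and in Gm20388 (2.89 points, chr8:122673854-122674312). The Itga9 fragment stood at 44.1% ± 1.45 (SD, n = 4) in brown and 62.1% ± 1.99 (SD, n = 5) in white.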

How the data were processed

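The study digested DNA with MspI and TaqαI, sequenced it in pairs after bisulfite conversion and aligned it to mm9 with Bowtie, of a version not given in the sources used here, before calling methylation. The authors' deposited percent methylation table kept cytosines with at least 10 reads in all 9 libraries and gives no read numbers, so Fisher's exact test on reads could not be run. All 838481 positions were CpG cytosines of NCBIM37. Fragments, promoters (at least 2 cytosines) and gene windows (protein-coding, at least 10 cytosines) were averaged per library, moved to log2((level + 1)/(100 − level + 1)) and fitted in limma 3.58.1 (R 4.3.3) on all 9 libraries with terms for lineage and for day 0 against later days. P-values were Benjamini-Hochberg adjusted over all features of a kind and called under 0.05. A fragment belonged to the member holding its midpoint. Exon numbers are of the longest transcript. Named were all members, called fragments and the 6 widest differences per chromosome group. The fit was tested on simulated data in which 200 of 67233 fragments were shifted. It recovered 44% of shifts of 1 log2 odds unit and 85% of shifts of 2, with 9 false calls. A fragment that was not called is therefore not shown to be unchanged. In the data 9.43% of fragments were called, a far larger share than was shifted in the simulation. The simulated libraries were drawn independently, so the recovery rates need not hold for the data. The members and lists were chosen with earlier results of these data known. Levels by strand in the called fragments were read after the data were seen.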

Additional observations from a re-analysis of the deposited data

Results flagged for a closer look

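The Irx3 gene window had 1 brown library apart from the rest: BAT + NE at day 6 averaged 8.49%, and the BAT libraries 7.85% to 7.91%. This was 1 of 54 lineage groups examined over 27 gene windows, promoters and fragments (1.85%), and chance sets about 1 in 20 groups apart.

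Changes from day 0 to the mean of days 4 and 6 ran in opposite directions in BAT and WAT for 4 gene windows, promoters or fragments, and none of these differences was tested. The Irx1 gene window moved by 4.03 points in BAT and by −1.66 in WAT, a difference of 5.69 points. The Fto fragment in intron 8 (chr8:94180960-94181107) moved by −1.06 points in BAT and 3.36 in WAT, a difference of −4.42. The Irx3 gene window moved by −0.033 and 1.11 points, a difference of −1.15, and the Irx3 promoter by 0.397 and −0.163, a difference of 0.560.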

How the results depend on the processing

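The 7 called fragments and the Irx5 gene window kept their direction under every alternative run that gave a value for them, and the 16 chromosome 13 fragments had 0 calls under all. With the 6 BAT and WAT libraries and day as a factor, which pairs BAT with WAT by day, 0 of 58 fragments and 0 of 7 gene windows were called (1530 fragments and 331 windows of the whole table); this fit has fewer libraries. With each library left out in turn, 5 to 8 of 58 were called, 5 (8.62%, against 6.65% of all) without a day 0 library. The other settings called 5 to 9, 9 of 58 (15.5%, against 11.3% of all) on the percent scale and 5 of 36 (13.9%, against 9.16%) with at least 8 cytosines. Leaving out either day 0 library gave the same lineage fit, because the day term then absorbs the other. The promoter rule at any day called 3 of 7 (25.2% of all promoters). The cytosine rule called 3 of 995 at 20 points (0.302%, against 0.635% of all) and 14 of 589 CpGs with strands averaged (2.38%, against 2.65%). By a gap of at least 5 points, 14 of 995 did not overlap (1.41%, against 1.45%). The chromosome 8 mean difference, 0.787 points over all its cytosines, was 0.588 to 0.992 with each library left out, 2.84 over cytosines from 10% to 90% and 1.27 without Fto. The chromosome 13 one was 0.145 to 0.748 with each library left out. The difference between the groups was 0.207 to 0.635 points with each library left out, −0.315 without flanks and 1.99 over cytosines from 10% to 90%. The causes were not tested. The fit without a day term gives no value for later days. The replicate numbers only order the days within a group, so no other block was fitted.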
